A study of Homo sapiens with 8 samples.

Results

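The class I histone deacetylases HDAC1, HDAC2, HDAC3 and HDAC8 were followed across A172 cells, an established human glioblastoma line, infected to make, on addition of doxycycline, either an shRNA that targets HDAC2 (shHDAC2) or a control shRNA (shControl). The members were the transcript clusters (the probe groups that the array assigns to 1 transcript locus) whose only listed symbol was 1 of these 4 names. This gave 5 clusters for 4 genes, of 16098 clusters with exactly 1 symbol and 14884 genes. HDAC1 (cluster 16662077), HDAC3 (17000900) and HDAC8 (17112032) had 1 cluster each, and HDAC2 had 2 (17022854 and 17011843). In the RefSeq annotation of GRCh38.p14, HDAC1 lies at chr1:32292083-32333626, HDAC2 at chr6:113933028-113971148, HDAC3 at chr5:141620881-141636849 and HDAC8 at chrX:72329516-72572843.

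RNA was hybridised to 8 Affymetrix arrays of the Human Gene 2.0 ST type, 2 for each of the groups shControl DOX(-), shControl DOX(+), shHDAC2 DOX(-) and shHDAC2 DOX(+), where DOX(+) cells received doxycycline at 2.5 μg/ml for 2 days and DOX(-) cells received none. All cells were stable, puromycin-selected populations infected with a lentiviral pLKO Tet-On vector. How many such populations each construct had is not given. A construct difference therefore cannot be told apart from a difference between infected populations. The labels call the arrays of a group biological replicates without saying whether they came from separate cultures, so p-values measure the spread between these arrays, which may be technical. In 4 samples, those of shControl DOX(+) and of shHDAC2 DOX(-), the source field of the labels names the opposite construct, and the groups here follow the titles, with which the treatment field agrees on the construct throughout. If the source field were right, these groups of arrays would change places. The comparison given here as doxycycline in shHDAC2 cells would then be the construct with doxycycline, and that given as doxycycline in shControl cells would be the construct without doxycycline, and the reverse. For HDAC2 the step upon doxycycline treatment in shHDAC2 cells would thus be -0.999 in place of -0.60 (log2), and the construct difference without doxycycline -0.21 in place of -0.61. The construct differences averaged over doxycycline and against the 4 shControl arrays would change too, and were not recomputed with the groups exchanged. In neither HDAC2 nor its signal relative to HDAC1 would every shHDAC2 array then lie below every shControl array. No measure of the arrays was used to settle which field is right.

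Both arrays of shHDAC2 DOX(-) were unlike the other 6, with correlations over all clusters of 0.950 to 0.954, against 0.982 to 0.991 between the other groups and 0.986 to 0.988 between replicates. In these arrays KRT18 was at 6.28 and 6.24, against 9.97 to 10.7 elsewhere, and CD68 was at 10.82 and 10.84, against 7.77 to 8.40 (log2 signal). NES was at 5.42 and 5.77, against 7.37 to 7.90, CHI3L1 at 6.09 and 6.45, against 4.37 to 5.07, and VIM at 10.27 and 10.34, against 9.34 to 9.77. Of the 9 glial and glioma markers, 8 were above the median of all clusters (3.66) in every group, with S100B below it, and the summed log2 signal of the list ran from 54.2 to 54.9 in shHDAC2 DOX(-) and from 54.3 to 56.1 in the other groups. This sum hides moves in both directions, since 3 of the 9 rose and 3 fell upon doxycycline treatment in shHDAC2 cells (limma, adjusted p under 0.05). In that comparison 15.7% of all genes rose and 16.1% fell, and 4697 of 10303 genes at or above the median signal were called when fitted alone. Of the endothelial markers, 0 of 2 measured had a mean over the 8 arrays above that median. The immune list had 1 measured member, CD68, and the neuron and epithelial lists had 2 each, all with such a mean above the median. The part of these differences in the results that use the shHDAC2 DOX(-) arrays was not tested. For the 4 members, comparisons of group means that leave out these arrays are given as well, though their spread comes from all 8 arrays.

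Histone deacetylases remove acetyl groups from lysines of histones and other proteins, and the class I enzymes are mostly nuclear. HDAC1 and HDAC2 are close paralogs that work as catalytic subunits of the SIN3, NuRD, CoREST and MiDAC complexes, whose scaffolds hold and activate them. HDAC3 works in the NCoR complex, whereas HDAC8 acts without such a complex and deacetylates SMC3, a subunit of the cohesin ring. Loss of HDAC1 or HDAC2 is known in several cell types to be accompanied by more of the other paralog.

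The 250 bases before the RefSeq start of HDAC1 (chr1:32291833-32292082, plus strand) and of HDAC2 (chr6:113971149-113971398, minus strand) are shown in GRCh38.p14, because these are the members whose signals fell upon doxycycline treatment. Capitals mark the letters GGGCGG (a GC box) or CCAAT (or ATTGG on the other strand), searched on both strands together with TATAAA.
HDAC1: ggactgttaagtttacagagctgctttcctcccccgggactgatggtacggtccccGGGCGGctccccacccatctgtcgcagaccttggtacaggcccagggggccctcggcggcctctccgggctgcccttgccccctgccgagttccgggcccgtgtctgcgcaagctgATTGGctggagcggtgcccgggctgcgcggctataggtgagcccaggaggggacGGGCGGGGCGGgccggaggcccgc
HDAC2: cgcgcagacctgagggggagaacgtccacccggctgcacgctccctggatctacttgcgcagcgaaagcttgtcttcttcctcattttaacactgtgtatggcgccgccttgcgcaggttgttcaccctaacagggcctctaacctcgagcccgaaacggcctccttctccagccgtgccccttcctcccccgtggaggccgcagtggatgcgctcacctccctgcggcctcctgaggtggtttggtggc
The HDAC1 window was 71.6% G or C and held GGGCGG at 194, 24 and 19 bases before the start, the last pair overlapping by 1 base, and CCAAT on the opposite strand at 78. The HDAC2 window was 63.2% G or C, and none of the 3 motifs was in its letters. GGGCGG was found in 42.6% of 35116 RefSeq promoters over the same 250 bases, CCAAT in 32.0% and TATAAA in 10.7%. The HDAC3 window held 1 GGGCGG and the HDAC8 window none of these motifs.

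HDAC2, the target of the shRNA, fell upon doxycycline treatment in shHDAC2 cells, and HDAC1 fell in the same comparison, whereas HDAC3 and HDAC8 did not pass the test. Of the 4 members, 2 were called at an adjusted p under 0.05 (limma, Benjamini-Hochberg over 14884 genes), beside 31.9% of all genes, so that a call in this comparison was common. Both were lower, as were 16.1% of all genes, and 15.7% of all genes were higher. In RNA of whole cultures, fewer cells with a transcript and less of it per cell cannot be told apart.

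**Figure D1:**
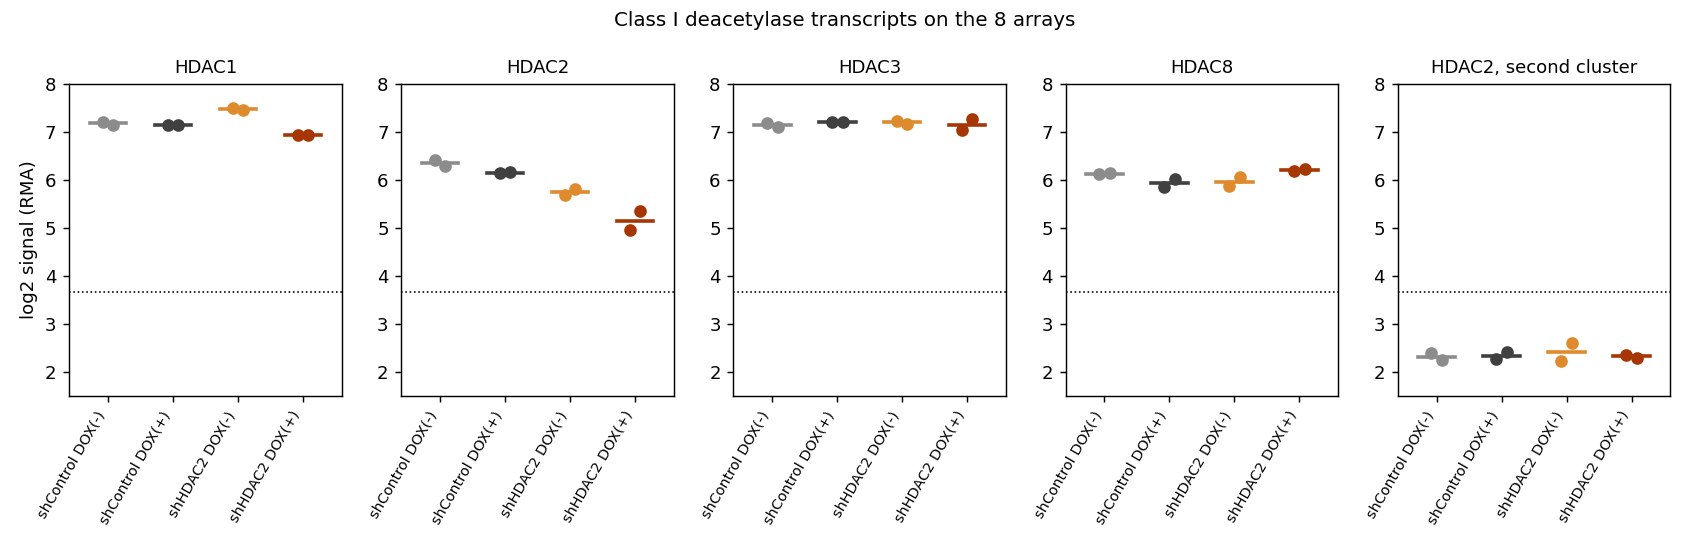
The log2 signal (RMA, vertical axis) of the 5 class I deacetylase clusters is plotted for each array (points) in the 4 groups, with the group mean as a bar and the median of all clusters (3.66) as a dotted line. HDAC2 steps down from 6.42 in shControl DOX(-) to 4.95 in shHDAC2 DOX(+), HDAC1 is highest in shHDAC2 DOX(-), and the second HDAC2 cluster stays below the dotted line.

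HDAC2 had log2 signals of 6.42 and 6.30 in shControl DOX(-), 6.14 and 6.15 in shControl DOX(+), 5.69 and 5.80 in shHDAC2 DOX(-), and 4.95 and 5.34 in shHDAC2 DOX(+). No 2 of the 4 groups overlapped, and every shHDAC2 array was below every shControl array. The share of all genes whose groups of 2 arrays separate in this way was not counted, here or for the genes below. Averaged over doxycycline, HDAC2 in shHDAC2 cells was at 57.2% of its signal in shControl cells (95% interval 48.8 to 66.9%), a log2 difference of -0.81 (SE 0.10, adjusted p = 0.000434). It was called under all 16 alternative settings run for this average, and it was the only member of 4 called there, beside 25.7% of all genes.

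In DOX(+) cells alone, HDAC2 was at 50.0% of the shControl signal (95% interval 40.0 to 62.5%, adjusted p = 0.00724). HDAC2 was again the only member called, where 4.23% of all genes were called, 3.35% lower and 0.88% higher. This call did not hold without shControl DOX(+) replicate 1 (-1.01, adjusted p = 0.0597), without shControl DOX(+) replicate 2 (-0.99, adjusted p = 0.0618) or without shHDAC2 DOX(+) replicate 1 (-0.80, adjusted p = 0.0531). Set against all 4 shControl arrays, a comparison chosen once the unlike shHDAC2 DOX(-) arrays had been seen, HDAC2 in shHDAC2 DOX(+) was at 46.5% (adjusted p = 0.00159), the only member called beside 6.5% of all genes, and it was called in all 17 alternatives. The methods' t-test and the fit on the compared arrays alone are not among those 17 either.

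HDAC2 was also lower in shHDAC2 cells that had received no doxycycline, at 65.3% of the shControl DOX(-) signal (log2 difference -0.61, adjusted p = 0.00917). It was the only member called there, beside 31.4% of all genes, 17.2% lower and 14.2% higher. Without shControl DOX(-) replicate 1 the difference was -0.55 (adjusted p = 0.0627), and without shHDAC2 DOX(-) replicate 1 it was -0.56 (adjusted p = 0.0526).

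The doxycycline step of HDAC2 within shHDAC2 cells was -0.60 on the log2 scale (SE 0.142, 95% interval -0.92 to -0.28, adjusted p = 0.0104), and within shControl cells it was -0.21 (95% interval -0.53 to 0.11, adjusted p = 0.945). The test of the difference between both responses gave -0.38 (95% interval -0.84 to 0.07, adjusted p = 0.234), so that a larger doxycycline step in shHDAC2 cells was not shown for HDAC2. Without shHDAC2 DOX(+) replicate 1 the step was -0.40 (adjusted p = 0.0689), and without shHDAC2 DOX(-) replicate 2 it was -0.54 (adjusted p = 0.0569).

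The second HDAC2 cluster had log2 signals of 2.39 and 2.24 in shControl DOX(-), 2.27 and 2.41 in shControl DOX(+), 2.23 and 2.61 in shHDAC2 DOX(-), and 2.36 and 2.29 in shHDAC2 DOX(+). It was below the median of all clusters on every array, and its groups overlapped. Its difference between the constructs was 0.04 (95% interval -0.19 to 0.27), so that its signal carried no step like that of the first cluster.

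HDAC1, the paralog of HDAC2, had log2 signals of 7.21 and 7.14 in shControl DOX(-), 7.14 and 7.15 in shControl DOX(+), 7.49 and 7.44 in shHDAC2 DOX(-), and 6.93 and 6.94 in shHDAC2 DOX(+). The shControl groups overlapped, both shHDAC2 DOX(-) arrays were above them and both shHDAC2 DOX(+) arrays were below them. Upon doxycycline treatment HDAC1 fell 1.44-fold in shHDAC2 cells (log2 difference -0.53, SE 0.102, adjusted p = 0.00347), a call kept in 17 of 18 alternatives. In shControl cells the difference was -0.03 (95% interval -0.26 to 0.20, adjusted p = 0.991).

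The responses of HDAC1 differed between the constructs by -0.50 (95% interval -0.83 to -0.17, adjusted p = 0.0386), and HDAC1 was the only member called for this difference, beside 20.8% of all genes. The call held in 7 of 16 alternatives and in 0 of the 8 fits that left out 1 array, where the value ran from -0.53 to -0.47 and the adjusted p from 0.0683 without shHDAC2 DOX(-) replicate 2 to 0.115 without shControl DOX(-) replicate 2.

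The fall of HDAC1 was measured from the shHDAC2 DOX(-) arrays. In comparisons without them, HDAC1 did not pass the test: the difference between the constructs in DOX(+) cells was -0.21 (95% interval -0.44 to 0.02, adjusted p = 0.324), and that between shHDAC2 DOX(+) and the 4 shControl arrays was -0.23 (95% interval -0.43 to -0.02, adjusted p = 0.19). In DOX(-) cells the construct difference of HDAC1 was 0.29 and did not pass the test (95% interval 0.06 to 0.52, adjusted p = 0.0602). Averaged over doxycycline, the construct difference of HDAC1 was 0.04 (95% interval -0.12 to 0.20). The interval for HDAC1 thus ended at 0.02 on the log2 scale in DOX(+) cells. In DOX(-) cells, a comparison that uses the shHDAC2 DOX(-) arrays, it lay above 0, and the difference was called in 3 of 18 alternatives. These are transcript signals, and the arrays do not measure HDAC1 protein.

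HDAC3, the catalytic subunit of NCoR, had log2 signals of 7.19 and 7.11 in shControl DOX(-), 7.20 and 7.20 in shControl DOX(+), 7.22 and 7.17 in shHDAC2 DOX(-), and 7.03 and 7.26 in shHDAC2 DOX(+). Its arrays spanned 0.24, and the lowest and the highest array were both shHDAC2 DOX(+). Its difference upon doxycycline treatment in shHDAC2 cells was -0.05 (95% interval -0.31 to 0.22, adjusted p = 0.819), and the average construct difference was -0.01 (95% interval -0.20 to 0.18, adjusted p = 0.96). In DOX(+) cells the construct difference of HDAC3 was -0.06 (95% interval -0.32 to 0.21, adjusted p = 0.849). Between shHDAC2 DOX(+) and the 4 shControl arrays the difference was -0.03 (95% interval -0.26 to 0.20, adjusted p = 0.908). HDAC3 had the narrowest range of the 4 members over the arrays.

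HDAC8 had log2 signals of 6.12 and 6.14 in shControl DOX(-), 5.86 and 6.01 in shControl DOX(+), 5.86 and 6.06 in shHDAC2 DOX(-), and 6.19 and 6.23 in shHDAC2 DOX(+). Both shHDAC2 DOX(+) arrays were above the other 6. The difference of HDAC8 upon doxycycline treatment was 0.25 in shHDAC2 cells (95% interval -0.02 to 0.51, adjusted p = 0.152) and -0.20 in shControl cells (95% interval -0.46 to 0.07, adjusted p = 0.93). The difference between these responses was 0.44 (95% interval 0.07 to 0.82), with an adjusted p of 0.0982, and the construct difference in DOX(+) cells was 0.28 (adjusted p = 0.254). HDAC8 was thus called in none of the 7 comparisons, and it was called in none of their alternatives.

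In shControl cells, doxycycline changed 0 of the 4 members by limma, beside 0% of all genes, and 0 members passed an unadjusted p of 0.05 by limma or by the methods' t-test, whereas 821 genes did so by limma.

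**Figure D2:**
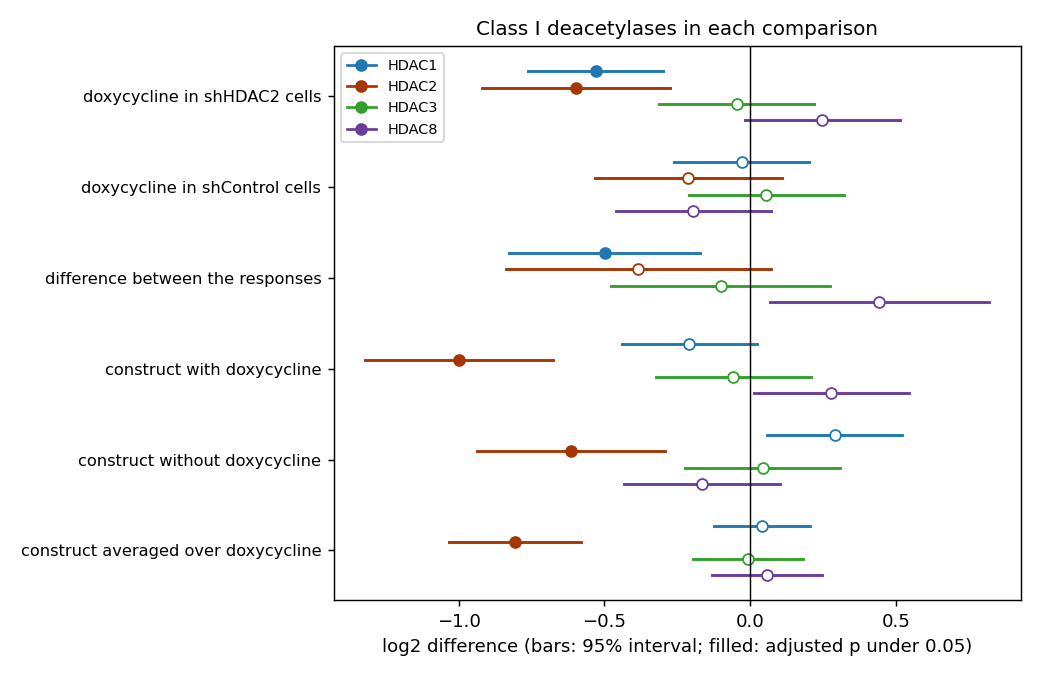
The log2 difference (horizontal axis) of each class I deacetylase is plotted in the 6 planned comparisons, with its 95% interval as a line and a filled point where the adjusted p was under 0.05. HDAC2 lies between -0.999 and -0.61 in the 3 construct comparisons while the intervals of HDAC3 all include 0, and HDAC1 is filled for doxycycline in shHDAC2 cells and for the difference between the responses.

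HDAC2 relative to HDAC1 was compared within each array, since both enzymes fill the same position in their complexes. A within-array difference of log2 signals from different probes does not compare their levels, but its change between arrays does compare their changes. HDAC2 minus HDAC1 was -0.79 and -0.85 in shControl DOX(-), -1.01 and -0.99 in shControl DOX(+), -1.80 and -1.64 in shHDAC2 DOX(-), and -1.98 and -1.60 in shHDAC2 DOX(+). Every shHDAC2 array was below every shControl array, and both shHDAC2 groups overlapped.

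The mean was -1.75 ± 0.17 (SD, n = 4) in shHDAC2 and -0.91 ± 0.11 (SD, n = 4) in shControl, so that HDAC2 relative to HDAC1 was 1.80-fold lower with the shHDAC2 construct (log2 difference -0.85, exact permutation test over arrays, two-sided p = 0.0286, the smallest that 4 against 4 arrays can give). This test exchanges arrays across the doxycycline states. It compares arrays and not separate infections of each construct, and its groups follow the titles. Exchanged only within a doxycycline state, the same difference had an exact permutation p of 0.0556, the smallest that this design allows, so that the threshold cannot be reached there. Without both shHDAC2 DOX(-) arrays the difference was -0.88 (exact permutation p = 0.0667, again the smallest possible). The doxycycline step of this measure was -0.07 in shHDAC2 cells and -0.18 in shControl cells. The construct difference of this measure was thus present already in DOX(-) cells (means of -1.72 in shHDAC2 and -0.82 in shControl). In shHDAC2 cells HDAC1 moved by -0.53 and HDAC2 by -0.60 upon doxycycline treatment, both measured from the unlike shHDAC2 DOX(-) arrays. Whether these steps were alike was not tested, and the shHDAC2 DOX(+) arrays themselves lay at -1.98 and -1.60. With doxycycline, where those arrays are not compared, the construct difference was -0.21 for HDAC1 (not called) and -0.999 for HDAC2.

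**Figure D3:**
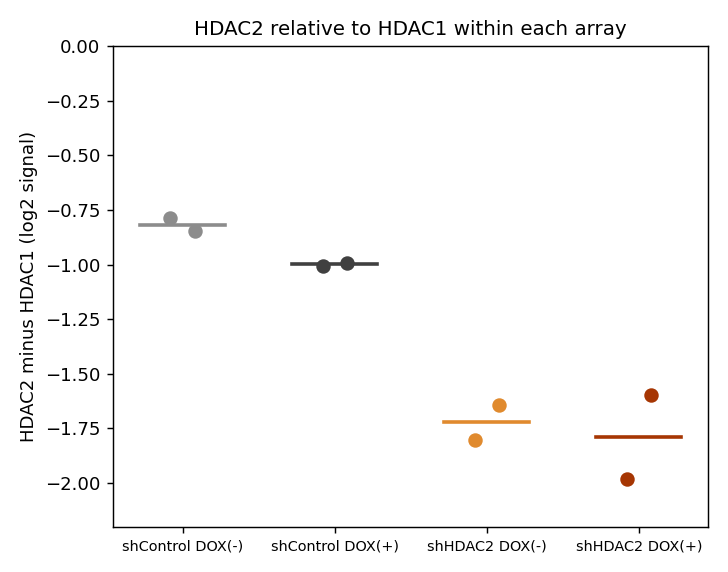
HDAC2 minus HDAC1 (log2 signal, vertical axis) is plotted for each array (points) and as the mean of each group (bars). The shControl arrays lie between -1.01 and -0.79 and the shHDAC2 arrays between -1.98 and -1.60.

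The transcripts of the complexes in which HDAC1, HDAC2 and HDAC3 work, and of the cohesin ring that holds the HDAC8 substrate SMC3, were then counted. Of 45 listed subunits of SIN3, NuRD, CoREST, MiDAC, NCoR, cohesin and the shared histone chaperones, 32 were measured, and MTA2, MTA3, MBD3 and NCOR1 were among the 13 not analysed here. Upon doxycycline treatment in shHDAC2 cells 11 of the 32 rose (34.4%, beside 15.7% of all genes), 7 fell (21.9%, beside 16.1%) and 14 did not pass the test, with a median log2 difference of 0.08 beside -0.01 for all genes. Calls were more common among brighter genes: in the fit limited to genes at or above the median signal, 4697 of 10303 were called. The subunits called, 56.2% of those measured, are to be read beside that share too. In shControl cells 0 were called by limma, beside 0% of all genes. At an unadjusted p under 0.05 there were 2 by limma, beside 821 of 14884 genes, and 3 by the methods' t-test, beside 927.

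By complex, and beside the same 15.7% of all genes higher and 16.1% lower, 4 of 6 measured SIN3 subunits rose upon doxycycline treatment in shHDAC2 cells and 1 fell. Besides ARID4B and SIN3B, described below, SAP30L rose by 0.66 (adjusted p = 0.0179) and SUDS3 by 0.45 (adjusted p = 0.0396). The call of SAP30L was lost without shHDAC2 DOX(-) replicate 2 (0.51, adjusted p = 0.108) or shHDAC2 DOX(+) replicate 1 (0.49, adjusted p = 0.124), and that of SUDS3 in 6 of 8 fits without 1 array, with up to 0.236 without shHDAC2 DOX(-) replicate 1 (0.27). Of 7 NuRD subunits 2 rose, GATAD2B by 0.74 (adjusted p = 0.00111) and the remodeller CHD3 by 0.59 (adjusted p = 0.00402), and 1 fell. Of 7 CoREST subunits 3 rose and 1 fell. RCOR3, a paralog of the scaffold RCOR1, rose by 0.80 (adjusted p = 0.00306), and PHF21A, which binds unmethylated histone H3, rose by 0.47 (adjusted p = 0.0136), a call lost without shHDAC2 DOX(-) replicate 1 (0.40, adjusted p = 0.0802) or shHDAC2 DOX(+) replicate 2 (0.40, adjusted p = 0.0819). Of the histone chaperones shared by these complexes, RBBP7 rose by 0.68 (adjusted p = 0.00107) and RBBP4 had a difference of -0.31 (adjusted p = 0.0541). In NCoR, the complex of HDAC3, 2 of 3 measured subunits fell and 0 rose, and GPS2 fell by 0.85 (adjusted p = 0.000332).

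Among the subunits that rose, ARID4B, a chromatin-binding SIN3 subunit, had log2 signals of 7.38 and 7.18 in shControl DOX(-), 7.37 and 7.23 in shControl DOX(+), 5.91 and 5.94 in shHDAC2 DOX(-), and 7.15 and 7.14 in shHDAC2 DOX(+). Only the shHDAC2 DOX(-) arrays lay apart from the rest. ARID4B rose by 1.22 (adjusted p = 4.8e-05). ZNF217, a zinc finger protein found with CoREST, rose by 0.88 (adjusted p = 0.000193). SIN3B, a SIN3 scaffold, rose by 0.84 (adjusted p = 0.000589). Without doxycycline these 3 genes were lower with the shHDAC2 construct, with log2 differences of -1.35, -1.04 and -0.61 in the same order, and all 6 calls held when any 1 array was left out.

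Among those that fell, MBD2, the NuRD subunit that binds methylated DNA, had log2 signals of 7.38 and 7.13 in shControl DOX(-), 7.29 and 7.12 in shControl DOX(+), 8.33 and 8.25 in shHDAC2 DOX(-), and 7.23 and 7.24 in shHDAC2 DOX(+). As with ARID4B, the shHDAC2 DOX(-) arrays lay outside the range of the other 6, here above it. MBD2 fell by 1.06 (adjusted p = 0.000195). RCOR1, the CoREST scaffold that binds HDAC1 or HDAC2, fell by 0.93 (adjusted p = 0.000238). TBL1X, a WD-repeat subunit of NCoR, fell by 0.90 (adjusted p = 0.00754), a call lost without shHDAC2 DOX(-) replicate 1 (-0.74, adjusted p = 0.0515) or shHDAC2 DOX(+) replicate 1 (-0.71, adjusted p = 0.0621). Without doxycycline MBD2 was 1.04 higher in shHDAC2 than in shControl cells (adjusted p = 0.000233), RCOR1 was 0.97 higher (adjusted p = 0.000189), and TBL1X had a difference of 0.55 (adjusted p = 0.0695).

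**Figure D4:**
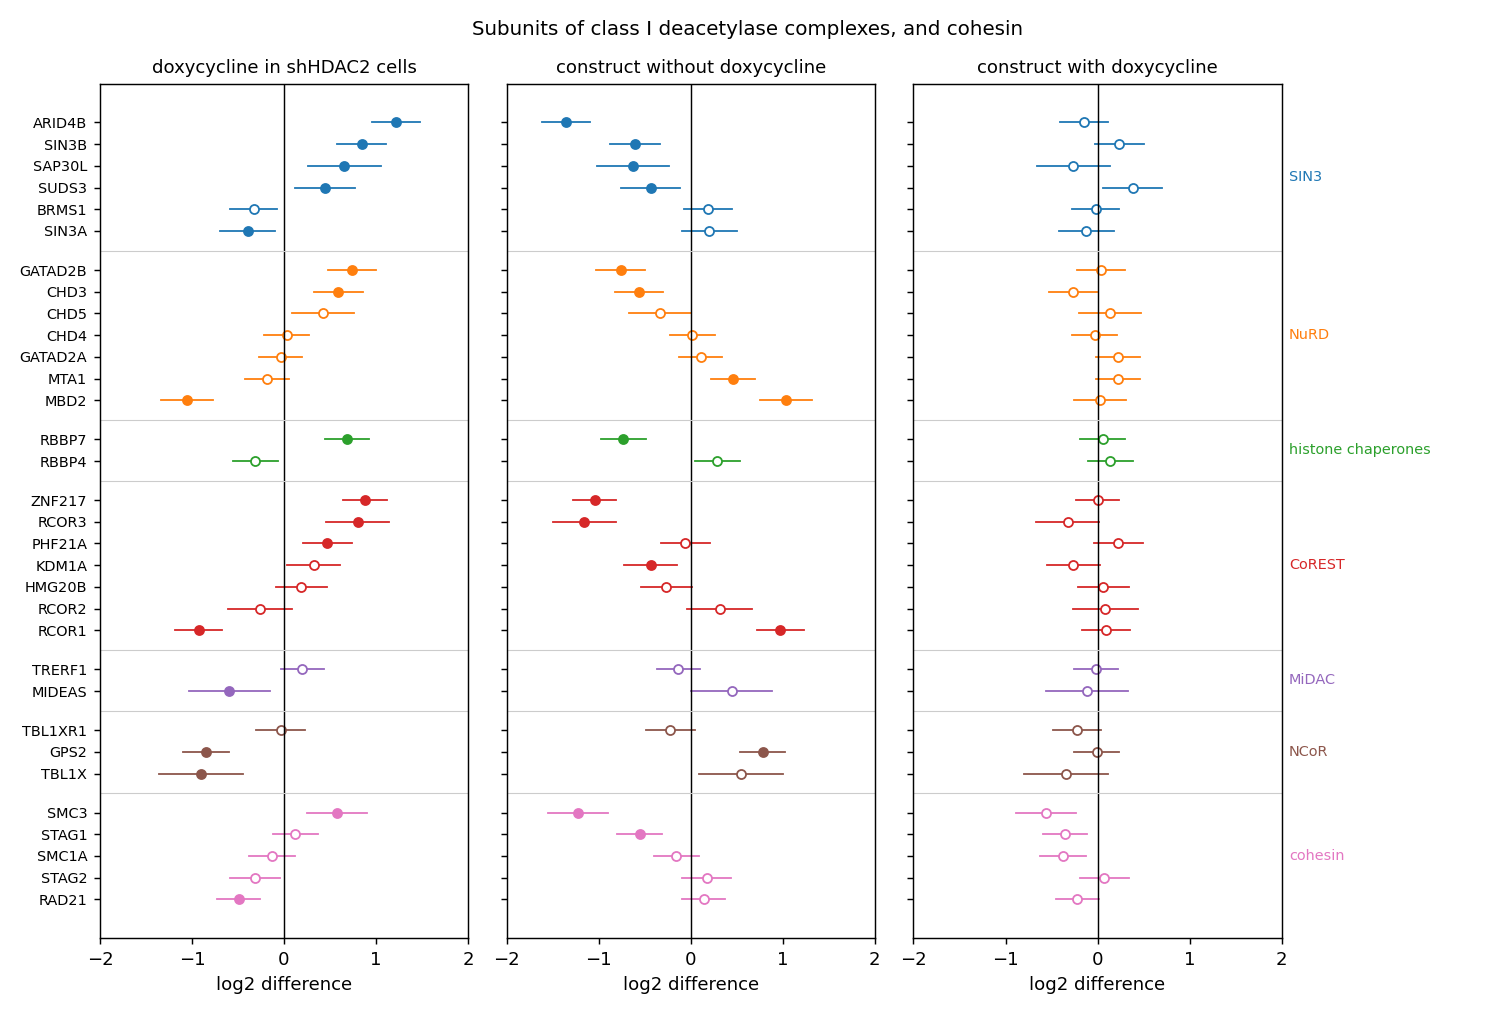
Log2 differences (horizontal axis, lines are 95% intervals) of the 32 measured subunits are plotted by complex for doxycycline in shHDAC2 cells, for the construct without doxycycline and for the construct with doxycycline. Filled points had an adjusted p under 0.05, which 18, 16 and 0 subunits had in the 3 panels.

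Without doxycycline, 4 of the 32 subunits were higher with the shHDAC2 construct (12.5%, beside 14.2% of all genes) and 12 were lower (37.5%, beside 17.2%). With doxycycline, where the shHDAC2 DOX(-) arrays are not compared, 0 of 32 were called by limma, beside 4.23% of all genes. At an unadjusted p under 0.05 there were 5 by limma, beside 2729 of 14884 genes, and 6 by the methods' t-test, beside 1860. The median was -0.01 beside -0.01 for all genes. Against the 4 shControl arrays, which also leaves those arrays out of the comparison, 2 of 32 were lower and 0 higher in shHDAC2 DOX(+) (6.25% called, beside 6.5% of all genes), both of them cohesin genes. Averaged over doxycycline 4 were higher and 11 lower (46.9% called, beside 25.7% of all genes). For the difference between the responses 8 were higher and 3 lower (34.4% called, beside 20.8%). In the fit limited to genes at or above the median signal, 4650 of 10303 genes were called without doxycycline. That fit called 3965 averaged over doxycycline and 3299 for the difference between the responses.

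Of the other subunits that hold the deacetylases in their complexes, SIN3A fell by 0.39 upon doxycycline treatment in shHDAC2 cells (adjusted p = 0.0492), and MIDEAS, the MiDAC scaffold, fell by 0.59 (adjusted p = 0.046). The call of SIN3A held in 1 of 8 fits that left out 1 array, with adjusted p of up to 0.273 without shHDAC2 DOX(+) replicate 1 (-0.24), and that of MIDEAS in 3 of 8, with up to 0.282 without the same array (-0.30). MTA1, which binds HDAC1 or HDAC2 in NuRD, had a difference of -0.18 in that comparison (adjusted p = 0.24) and was 0.46 higher in shHDAC2 cells without doxycycline (adjusted p = 0.00936), a call lost without shControl DOX(-) replicate 2 (0.40, adjusted p = 0.067). With doxycycline the construct differences of SIN3A, MIDEAS and MTA1 were -0.12, -0.11 and 0.23, and none of them was called.

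SMC3, the cohesin subunit that HDAC8 deacetylates, had log2 signals of 8.86 and 8.95 in shControl DOX(-), 8.72 and 8.91 in shControl DOX(+), 7.50 and 7.85 in shHDAC2 DOX(-), and 8.17 and 8.33 in shHDAC2 DOX(+). Every shHDAC2 array was below every shControl array. SMC3 rose by 0.58 upon doxycycline treatment in shHDAC2 cells (adjusted p = 0.0134), a call lost without shHDAC2 DOX(-) replicate 1 (0.40, adjusted p = 0.0901) or shHDAC2 DOX(+) replicate 2 (0.50, adjusted p = 0.0838). Without doxycycline it was lower with the shHDAC2 construct (log2 difference -1.23, adjusted p = 0.000196). With doxycycline the construct difference was -0.57 and did not pass the test (adjusted p = 0.0659). Against the 4 shControl arrays SMC3 was lower in shHDAC2 DOX(+) (log2 difference -0.61, 95% interval -0.89 to -0.33, adjusted p = 0.0222). That call held in 3 of 8 fits without 1 array, with adjusted p of up to 0.187 without shHDAC2 DOX(+) replicate 1 (-0.53). STAG1, another cohesin subunit, was lower there too (-0.39, adjusted p = 0.0391), a call lost in all 8 such fits (adjusted p from 0.0504 without either shHDAC2 DOX(-) array to 0.226 without shHDAC2 DOX(+) replicate 1). Of the other 4 cohesin genes, 1 was called upon doxycycline treatment in shHDAC2 cells, RAD21, which fell by 0.49 (adjusted p = 0.00523).

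For comparison, 1 of the 7 other zinc-dependent deacetylases, HDAC11, was called upon doxycycline treatment in shHDAC2 cells (14.3%, beside 31.9% of all genes). HDAC11, the class IV enzyme, had log2 signals of 5.22 and 5.03 in shControl DOX(-), 5.05 and 5.31 in shControl DOX(+), 4.14 and 4.03 in shHDAC2 DOX(-), and 5.02 and 5.03 in shHDAC2 DOX(+). It was low on the shHDAC2 DOX(-) arrays alone, rose by 0.94 (adjusted p = 0.000493) and was lower by construct without doxycycline (-1.04, adjusted p = 0.000283). HDAC9, a class IIa enzyme, was lower in that last comparison too (-0.38, adjusted p = 0.0311), a call lost in 3 of 8 fits without 1 array, with up to 0.175 without shHDAC2 DOX(-) replicate 1 (-0.28). With doxycycline, 0 of the 7 were called by construct, beside 4.23% of all genes. At an unadjusted p under 0.05 there were 0 by limma, beside 2729 of 14884 genes, and 0 by the methods' t-test, beside 1860.

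The genes whose signals ran most like those of each member were ranked by Pearson's r over the 8 arrays, among 10302 genes at or above the median signal. These values describe the arrays, which share their groups, and are given without a test. For HDAC2 the 5 nearest were NUDCD2 (0.989), TOP2A (0.983), KIF23 (0.982), AHNAK2 (0.981) and FUBP1 (0.981). NUDCD2 had log2 signals of 5.65 to 5.92 in shControl, 5.29 and 5.28 in shHDAC2 DOX(-), and 4.70 and 4.87 in shHDAC2 DOX(+), the same order of the constructs and of the shHDAC2 groups as HDAC2. TOP2A encodes DNA topoisomerase II alpha, and KIF23 a kinesin of cytokinesis.

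For HDAC1 the nearest were GPSM2 (0.999), IFT56 (0.997) and CLMP (0.995), all highest in shHDAC2 DOX(-) and lowest in shHDAC2 DOX(+). CLMP, an adhesion molecule, ran over a wider range than HDAC1, from 8.77 and 8.60 in shHDAC2 DOX(-) to 5.31 and 5.49 in shHDAC2 DOX(+). For HDAC3 they were LINC01193 (0.958), HFE (0.940) and KCNIP2 (0.936), and for HDAC8 PYDC1 (0.964), ZNF841 (0.944) and PLK3 (0.940). The arrays of HDAC3 and HDAC8 spanned 0.24 and 0.38, so that these last likenesses rest on small differences between arrays.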

How the data were processed

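Total RNA of the 8 samples was extracted (the methods name the RNeasy Plus Mini kit and Trizol, the labels Trizol) and hybridised to Affymetrix arrays. The authors normalized the arrays by RMA in Affymetrix Expression Console (versions and build not given in the sources used here) and deposited log2 signals (array medians 3.64 to 3.68). RMA includes a quantile normalization across arrays, which hides most of a common shift. Clusters were named through the platform annotation, which can be old: of 53617 clusters, 16098 had 1 symbol and 37519 none listed. A gene with several clusters was taken by its highest mean. Differences were fitted with limma 3.58.1 (R 4.3.3), 1 mean per group over all 8 arrays, with Benjamini-Hochberg adjustment over 14884 genes and a two-sided threshold of 0.05. The methods' t-test, the two-tailed unpaired test that the methods name for comparing groups, was an alternative, with its p-values adjusted in the same way. Other alternatives were the replicate block, omission of single arrays, a fit on the compared arrays alone, signal filters, every row of the table, cluster means, other scalings, array weights and a variance trend. The pooled shControl comparison, the settings without both shHDAC2 DOX(-) arrays and the exchange of arrays within a doxycycline state were added after the data were seen. The members and lists were chosen with earlier results of these data known. Partners named were the scaffolds, SMC3 and the 3 largest called differences each way; the other partners and deacetylases were named with their values known, beside counts of 5 or fewer. 1 listed gene is not reported here. The steps were tested on simulated data. The number of arrays limits the precision. Promoters are from RefSeq (GRCh38.p14), in which all 4 members matched.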

Additional observations from a re-analysis of the deposited data

Results flagged for a closer look

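Among the class I deacetylases, the subunits listed for their complexes and for cohesin, and the other zinc-dependent deacetylases, the doxycycline response differed between shHDAC2 and shControl cells by limma's test of the difference for 13 genes. These were 1 of the 4 members, 11 of the 32 subunits and 1 of the 7 other deacetylases, beside 20.8% of all genes. In the fit limited to genes at or above the median signal, 3299 of 10303 were called, so that such a call was common. HDAC1 differed by -0.50 (adjusted p = 0.0386), a call that was lost in each fit that left out 1 array (adjusted p of 0.0683 to 0.115). The other genes with a more negative response in shHDAC2 cells were MBD2 (-1.01, adjusted p = 0.00363), RCOR1 (-0.88, adjusted p = 0.00441) and GPS2 (-0.79, adjusted p = 0.00634). Those with a more positive response were ARID4B (1.20, adjusted p = 0.000879), ZNF217 (1.04, adjusted p = 0.00109), HDAC11 (0.89, adjusted p = 0.0083), SIN3B (0.84, adjusted p = 0.00718), RCOR3 (0.83, adjusted p = 0.0232), SUDS3 (0.82, adjusted p = 0.0186), GATAD2B (0.80, adjusted p = 0.00829), RBBP7 (0.79, adjusted p = 0.00579) and SMC3 (0.66, adjusted p = 0.0479). Of 8 fits that left out 1 array, the call of SMC3 was kept in 1, with adjusted p of up to 0.15 without shControl DOX(+) replicate 1 (0.57), that of SUDS3 in 3 and that of RCOR3 in 4. All of these values use the shHDAC2 DOX(-) arrays, which were unlike the other 6. The part of that difference in them was not tested, and the response in shHDAC2 cells cannot be had without these arrays.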

How the results depend on the processing

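With 2 arrays per group and 4 residual degrees of freedom, a call can turn on 1 array. Replicate numbers paired the samples weakly at most (correlations of deviations from -0.01 to 0.20 over 6 pairs of groups). With a replicate block, 4953 genes were called for doxycycline in shHDAC2 cells, against 4742 without it. For the construct with doxycycline there were 671 against 629. Paired by replicate number within each doxycycline state, as a replicate block, the HDAC2 minus HDAC1 difference stayed at -0.85 but could reach only an exact permutation p of 0.125. Exchanging arrays within a doxycycline state (-0.85) or leaving out both shHDAC2 DOX(-) arrays (-0.88) could reach only 0.0556 and 0.0667. With the replicate block in limma, 1 subunit was called for the construct with doxycycline, and no member's call changed. With the mean of a gene's clusters, which averages in the dim HDAC2 cluster, HDAC2 was -0.34 for doxycycline in shHDAC2 cells (adjusted p = 0.0698), -0.51 for the construct with doxycycline (0.0631) and -0.26 without it (0.167), leaving 1, 0 and 0 members called. By the methods' t-test these HDAC2 differences of -0.60, -0.999 and -0.61 had adjusted p of 0.26, 0.374 and 0.11, 0 members were called in each, and 2 subunits were called for doxycycline in shHDAC2 cells and 1 for the construct without doxycycline. With every row of the table tested, HDAC2 for the construct with doxycycline stayed at -0.999 (adjusted p = 0.0558), so that 0 members were called there and 0 for the difference between the responses. HDAC1 was called as a second member for the construct without doxycycline with genes at or above the median signal, a second quantile normalization and the variance trend, giving 2 members in each. For the construct with doxycycline, 1 subunit was called with genes at or above the median signal, 3 with the variance trend and 1 without both shHDAC2 DOX(-) arrays, against 0. Against the 4 shControl arrays, where 2 subunits were called, 0 were called with every row of the table, 1 with the second quantile normalization, 4 with the variance trend and 1 without both shHDAC2 DOX(-) arrays. HDAC3 changed sign under the second quantile normalization, to 0.045 for the average construct difference and 0.018 against the 4 shControl arrays. The cause of these changes was not tested.

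Leaving out 1 array at a time, HDAC2 ran from -0.79 to -0.40 for doxycycline in shHDAC2 cells, from -1.19 to -0.80 for the construct with doxycycline and from -0.68 to -0.55 without it, and the members called from 1 to 2, 0 to 1 and 0 to 1. For the difference between the responses 0 members were called in all 8 fits, and 0 to 1 subunits both for the construct with doxycycline and against the 4 shControl arrays. HDAC3, called in no setting, ran from -0.17 to 0.072 for doxycycline in shHDAC2 cells, -0.22 to 0.017 for the difference between the responses, -0.18 to 0.060 for the construct with doxycycline, -0.068 to 0.052 averaged and -0.15 to 0.088 against the 4 shControl arrays. HDAC1 for doxycycline in shControl cells ran from -0.061 to 0.000505. HDAC2 minus HDAC1 ran from -0.90 to -0.77. Over all genes named and all counts, 790 values were kept under the other alternatives. A kept difference held its direction and side of the threshold, and a kept count stayed near the main count. Genes that were never called are among those kept. Of the rest, 76 lost the call, 3 gained it, 2 changed sign and 21 counts moved further. Without 1 array 636 values were kept, 83 lost the call, 8 changed sign and 25 counts moved further.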
